A study of Mus musculus with 12 samples.

Results

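The Egr, Fos and Jun genes form the core of the immediate early genes, which a cell transcribes within minutes of a stimulus. The 10 genes described here are Egr1, Egr2 and Egr3 of the Egr family, Fos, Fosb, Fosl1 and Fosl2 of the Fos family, and Jun, Junb and Jund of the Jun family. They were taken by symbol from the 55357 gene identifiers listed in each of 2 count tables, and all 10 were present in both. The set was selected on a measured value, since Egr1 had been seen to move in opposite directions in liver and cells with esculetin. The values of Egr1 are therefore given as a description without a test, and the other 9 genes entered through their family names.

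Gene expression was measured by RNA-seq in 12 libraries, 3 in each of 4 groups, to follow the response to esculetin, a plant coumarin. The liver groups were wild-type male C57BL6/J mice of 8 to 9 weeks, gavaged daily for 7 days with esculetin at 90 mg/kg or with the vehicle, 2.5% Tween-80. In both liver groups a low-fat diet (10% kcal from fat) was eaten during the first 4 days and a high-fat diet (60% kcal) during the last 3, and the study states that each liver library was a pool of 2 mice. The cell groups were RAW264.7, a transformed mouse macrophage line, kept for 24 hours with 25 µg/mL oxidized low-density lipoprotein (oxLDL) carrying the dye DIL, together with esculetin at 40 µg/mL or DMSO. All cell libraries thus had oxLDL in common and all livers came from mice on the high-fat diet, and no library without these was analysed. The labels did not state separate cultures for the 3 cell libraries of a group, so their spread may be technical.

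Egr proteins are zinc-finger transcription factors that bind GC-rich sites, and Nab1 and Nab2 are co-repressors that bind to them. Fos and Jun proteins pair through leucine zippers to form the factor AP-1, in which Jun proteins can pair with each other but Fos proteins need a Jun partner. Several of the genes are switched on through serum response factor (SRF), ternary complex factors and CREB, which are targets of MAP kinases. In macrophages immediate early genes respond to bacterial products and growth factors, and in the liver to feeding, injury and regeneration.

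The stretches upstream of Fos and Egr2 are shown because these were the members with the largest fold changes in the cells among the 7 members for which a promoter window was at hand. The windows were RefSeq sequences of the build GRCm38.p6, 300 bases long, with 250 bases before and 50 after a transcription start. The members Egr1, Egr3 and Fosl1 had none. The printed part runs from 150 to 11 bases before the start, 5′ to 3′ on the plus strand, at chr12:85473740-85473879 for Fos and at chr10:67537719-67537858 for Egr2, where the middle one of 5 annotated starts was used. Capitals mark the letters of the motifs found.
Fos: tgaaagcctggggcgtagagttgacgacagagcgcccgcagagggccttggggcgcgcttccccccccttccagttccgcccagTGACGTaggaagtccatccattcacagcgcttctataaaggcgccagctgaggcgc
Egr2: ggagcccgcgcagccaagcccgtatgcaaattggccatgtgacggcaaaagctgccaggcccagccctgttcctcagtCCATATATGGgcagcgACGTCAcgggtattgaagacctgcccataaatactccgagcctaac

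In the Fos sequence the capitals are TGACGT, the core of the CREB site, with its first base 66 bases before the start. In the Egr2 sequence the first capitals are a CArG box, the site of SRF, 72 bases before the start, and the second are TGACGT on the other strand, 56 bases before it. Both strands of 32851 windows were searched. A CArG box lay in 1.63% of all windows and in the windows of no matched member other than Egr2, where 4 of its 5 windows held one. Bases outside the windows, and the promoters of Egr1, Egr3 and Fosl1, were not searched. A member without a match may thus still have such a site. TGACGT lay in 7.51% of all windows and, among the 7 matched members, in those of Fos and Egr2. The AP-1 site TGANTCA lay in 7.81% of all windows and in none of the matched members. The Egr site GCGTGGGCG lay in 0.612% of all windows and also in none of them. TGACGT and TGANTCA begin with the same letters. In the windows of the matched members their matches could not overlap, since TGANTCA had none there. These matches describe letters only, and the search for TGACGT was chosen after the sequences had been seen.

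Total counts ran from 13752842 to 20001959 in the cell libraries and from 14659876 to 20346460 in the liver libraries. Values are given as CPM, counts scaled to the library size with TMM factors, and errors are SD over 3 libraries. The 6 hepatocyte markers summed to between 103128 and 130888 CPM in the liver and to at most 0.878 CPM in the cells. The 6 macrophage markers, all of them detected in every group, summed to between 2181 and 2422 CPM in control cells and to between 4935 and 7512 CPM in esculetin-treated cells. In the liver the same sum was 152 to 204 CPM in controls and 162 to 173 CPM with esculetin, and the 5 Kupffer cell markers summed to 281 to 328 and 258 to 295 CPM. Of these 5, Clec4f, Vsig4, Timd4 and Marco were at 0 in control cells, and Timd4 alone in esculetin-treated cells. The 5 summed to 2.02 to 2.21 CPM in control cells and to 0.293 to 1.02 CPM in treated cells. In such bulk samples, fewer cells of a type and less RNA per cell cannot be told apart.

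Egr1, the member whose values chose the set, was measured at 4.61, 4.20 and 4.67 CPM in the control cells and at 126.5, 151.4 and 130.2 CPM in the esculetin-treated cells. The 2 groups were far apart, with the lowest treated library 27.1 times above the highest control. In the liver, Egr1 stood at 10.4, 27.7 and 9.44 CPM in controls and at 3.98, 3.38 and 4.40 CPM with esculetin. The liver groups did not overlap either, but control replicate 2 was well above the other controls. The log2 fold change was 4.92 ± 0.12 (SE) in the cells and -2.02 ± 0.37 in the liver, which became -1.34 without control replicate 2. That library also had the highest sum of the 3 erythroid markers, 776 CPM against 162 to 520 CPM in the other liver libraries. The part of blood in the Egr1 value was not tested.

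The other Egr genes rose in the cells. Egr2, a factor required for hindbrain patterning and peripheral myelination, was at 3.01, 3.82 and 3.21 CPM in control cells and at 20.6, 21.8 and 24.3 CPM with esculetin. Every treated library was at least 5.40 times the highest control. The increase was 6.66-fold (log2 fold change 2.73 ± 0.15 SE, adjusted p = 1.65e-07 by edgeR's quasi-likelihood test with Benjamini-Hochberg adjustment). Egr3, which is induced in activated lymphocytes and needed for muscle spindles, was at 1.97, 0.968 and 2.19 CPM in controls and at 12.4, 9.95 and 12.9 CPM with esculetin. Control replicate 2 was the lowest of the Egr3 values, at 18 counts. Egr3 rose 6.82-fold (log2 2.77 ± 0.26, adjusted p = 5.76e-06).

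In the liver, Egr2 and Egr3 were close to the limit of detection and did not pass the filter on low counts. The Egr2 counts were 4, 1 and 7 in controls and 2, 0 and 0 with esculetin, and those of Egr3 were 5, 5 and 0 in controls and 0 in every treated library. A count of 0 allows up to 3 counts, between 0.163 and 0.195 CPM in the treated liver libraries, which covers counting error only. No fold change was given for them. The remaining family member, Egr4, had no count in any of the 12 libraries.

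The co-repressors of Egr proteins rose with them in the cells. Nab2, itself known to be induced by Egr factors, went from 17.8 ± 1.9 to 58.9 ± 13.4 CPM (log2 fold change 1.73 ± 0.16 SE, adjusted p = 5.19e-06, edgeR). Nab1 went from 54.5 ± 7.9 to 86.7 ± 4.6 CPM (0.67 ± 0.11, adjusted p = 0.000303). In the liver Nab2 was at 13.2 ± 3.2 CPM in controls and 9.11 ± 1.29 with esculetin, groups that did not overlap but did not pass the test (log2 fold change -0.53, adjusted p = 0.501). Nab1 was at 22.3 ± 7.4 and 20.2 ± 1.9 CPM in the liver (-0.14, adjusted p = 0.882).

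Among the Fos genes, Fos itself had the largest log2 fold change in the cells. It was at 5.03, 6.72 and 5.30 CPM in control cells and at 42.8, 46.5 and 38.9 CPM in treated cells. The treated libraries lay close together, all at least 5.79 times above the highest control. The increase was 7.52-fold (log2 2.91 ± 0.14 SE, adjusted p = 9.94e-08, edgeR).

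Fosl1, which encodes the Fos-related protein Fra-1 that lacks a strong activation domain, was at 1.92, 2.69 and 1.90 CPM in controls and at 7.32, 9.34 and 13.4 CPM with esculetin. It rose 4.65-fold (2.22 ± 0.26, adjusted p = 2.76e-05). Fosl2, which encodes Fra-2, was the Fos gene with the most transcripts in the cells, at 209, 214 and 207 CPM in controls and 477, 562 and 678 CPM with esculetin. It rose 2.72-fold (1.45 ± 0.12, adjusted p = 2.18e-06).

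Fosb, known for a truncated splice form that accumulates under repeated stimulation, had the smallest log2 fold change of the Fos genes, within the error of that of Fosl2. It was at 3.89, 3.71 and 4.62 CPM in controls and at 6.29, 7.91 and 13.7 CPM with esculetin. The groups did not overlap, but the lowest treated library was 1.36 times the highest control, and replicate 3 lay well above the other treated libraries. The increase was 2.29-fold (1.20 ± 0.27, adjusted p = 0.00259), and the log2 fold change was 0.80 without esculetin replicate 3.

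Esculetin replicate 3 had the highest value of Egr2, Fosb, Fosl1, Fosl2 and Jund in the cells, and replicate 1 the lowest. Jun showed the reverse order, with 253 CPM in replicate 1 and 178 CPM in replicate 3. The summed macrophage markers were also highest in replicate 3 (7512 CPM) and lowest in replicate 1 (4935 CPM), as were the total counts, 18801094 and 13752842. Their part in these values was not tested.

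All 3 Jun genes rose in the cells. Jun, the AP-1 subunit with the strongest activating capacity, was at 40.8, 44.0 and 45.0 CPM in controls and at 253, 220 and 178 CPM with esculetin. The coefficient of variation was 5.05% in the controls and 17.3% in the treated libraries. Jun rose 5.01-fold (log2 2.32 ± 0.12 SE, adjusted p = 1.55e-07, edgeR).

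Junb, which often counteracts Jun at shared promoters, was at 109, 115 and 109 CPM in controls and at 328, 313 and 317 CPM with esculetin. Its treated libraries had a coefficient of variation of 2.41%. Junb rose 2.88-fold (1.53 ± 0.08, adjusted p = 1.15e-07). Jund, which is expressed in most cells without a stimulus, was at 33.9, 31.1 and 36.1 CPM in controls and at 55.3, 62.0 and 63.2 CPM with esculetin. Its log2 fold change was the smallest of the 10 genes, an increase of 1.78-fold (0.83 ± 0.10, adjusted p = 3.41e-05).

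In the cells, 9 of the 9 genes other than Egr1 thus rose at an adjusted p under 0.05, and none fell. Over all 13277 genes tested in the cells, 28.7% were called higher and 29.0% lower. The groups did not overlap for the same 9 genes, each higher with esculetin, against 31.0% of all genes tested. The median log2 fold change of the 9 was 2.22, beside -0.01 over all genes tested.

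**Figure D1:**
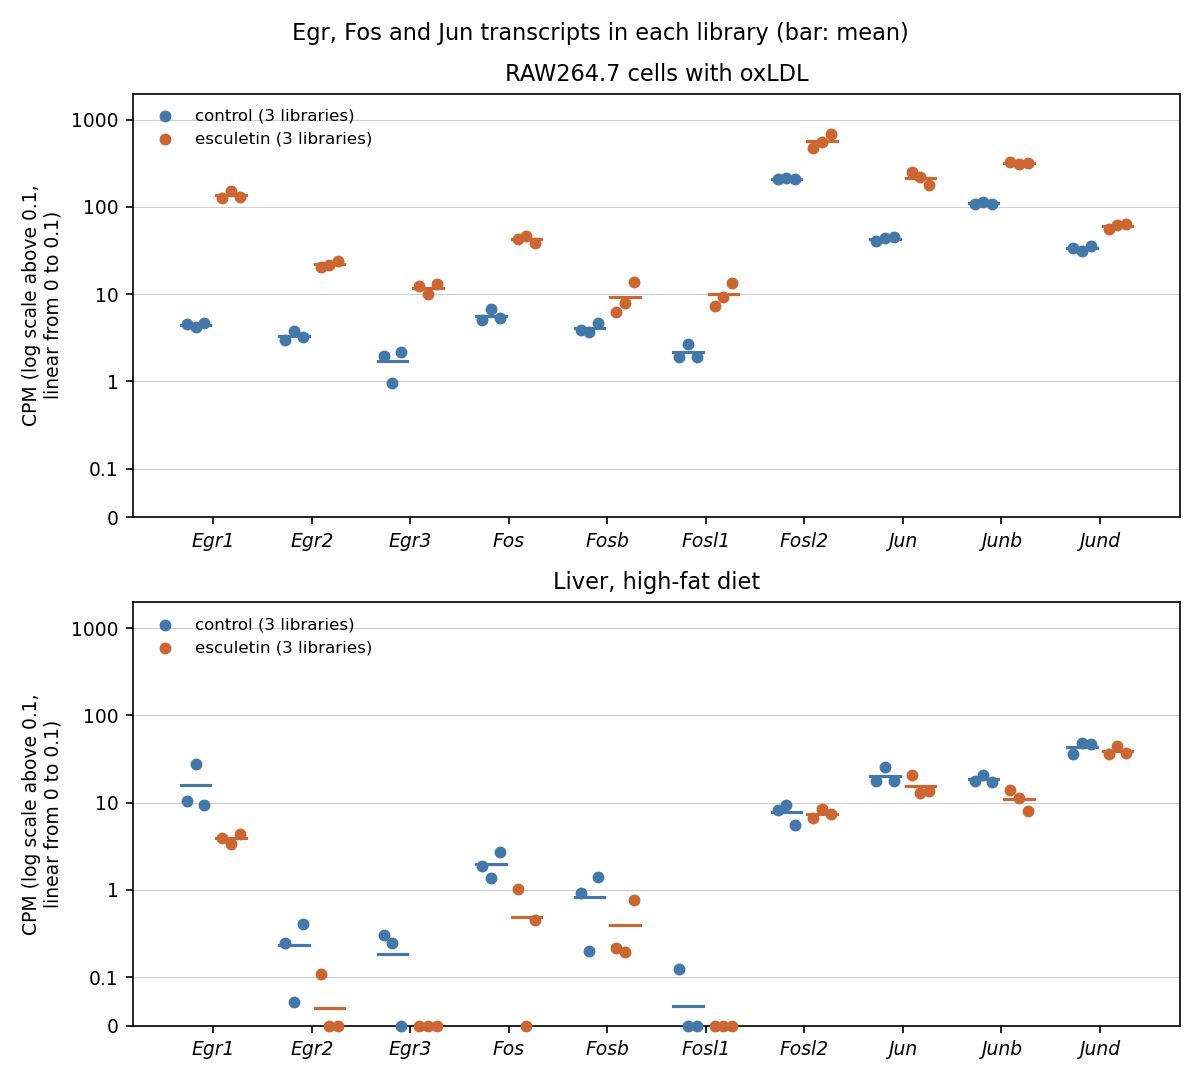
CPM of the 10 genes in each library, with cells in the upper panel and liver in the lower one, as points for the 3 control and 3 esculetin libraries and a bar for their mean. The vertical axis is logarithmic above 0.1 CPM and linear below. In the cells each treated library lies above each control for the 9 genes other than Egr1, against 31.0% of all genes tested. The lowest treated library is 1.36 times the highest control for Fosb and 5.79 times for Fos, the extremes of these 9. For Egr1, whose change chose the set, it is 27.1 times. In the liver Egr2, Egr3 and Fosl1 lie at or near 0.

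In the liver, 7 of the 10 genes passed the filter on low counts. Of the 6 other than Egr1, 0 were called at an adjusted p under 0.05 by edgeR, where 0.0859% of the 12813 genes tested were called. DESeq2 and limma-voom called 0 of them as well. Without a filter on low counts 2 (Fos and Junb) were called, beside 339 of 22343 genes tested. The study's rule (limma p under 0.05 and fold over 1.5) called 2. At any fold, 1057 of 12813 genes had such a limma p. With a replicate block 1 (Junb) was called, beside 123 of 12813 genes. At an unadjusted p under 0.05, 2 of the 6, Fos and Junb, were lower with esculetin, against 4.98% of all genes tested. The groups of Fos and of Junb did not overlap, a pattern shown by 7.95% of all genes tested. All 6 log2 fold changes were below 0, with a median of -0.56 beside -0.02 over all genes, and that of Fosl2 turned to 0.10 without control replicate 2.

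Fos was at 1.90, 1.38 and 2.74 CPM in control livers and at 1.04, 0 and 0.453 CPM with esculetin. These values rest on 28 to 47 counts in controls and on 19, 0 and 7 counts with esculetin, where the 0 allows up to 0.195 CPM. The log2 fold change was -1.94 ± 0.65 (SE) with an adjusted p of 0.445 by edgeR, and it lay between -3.11 and -1.41 when 1 library was left out. Junb was at 17.8, 20.7 and 17.1 CPM in control livers and at 13.8, 11.3 and 8.09 CPM with esculetin. Its log2 fold change was -0.74 ± 0.19 with an adjusted p of 0.271.

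The other members overlapped between the liver groups. Jun was at 17.9, 25.4 and 17.8 CPM in controls and at 20.7, 12.9 and 13.5 CPM with esculetin (log2 fold change -0.37 ± 0.21, adjusted p = 0.654, edgeR). Treated replicate 1 thus exceeded 2 of the controls. Jund, the liver member with the most transcripts per length, was at 36.0, 48.2 and 47.6 CPM in controls and at 36.2, 44.9 and 36.9 CPM with esculetin (-0.16 ± 0.15, adjusted p = 0.787). Fosl2 was at 8.35, 9.47 and 5.59 CPM in controls and at 6.70, 8.38 and 7.38 CPM with esculetin (-0.07 ± 0.22, adjusted p = 0.955).

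Fosb had 15, 4 and 24 counts in control livers and 4, 3 and 12 with esculetin (-1.06 ± 0.71, adjusted p = 0.709). The log2 fold change was -1.97 without esculetin replicate 3 and -0.48 without control replicate 3. Fosl1 had 2 counts in control replicate 1 and 0 in the other 5 liver libraries, and no fold change was given.

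The effect in the cells was then compared with that in the liver in 1 model of all 12 libraries, in which the difference of the log2 fold changes was tested. Of the 6 genes other than Egr1 that could be measured in both tables, 6 had a larger log2 fold change in the cells at an adjusted p under 0.05, against 13.4% of the 15709 genes tested. The difference was 4.79 ± 0.58 (SE) for Fos (adjusted p = 2.61e-05), and it was 6.05 without liver esculetin replicate 1 and 5.75 with limma-voom. It was 2.66 ± 0.26 for Jun (adjusted p = 4.93e-06) and 2.22 ± 0.20 for Junb (adjusted p = 3.04e-06). It was 1.47 ± 0.23 for Fosl2 (adjusted p = 0.00023) and 0.95 ± 0.18 for Jund (adjusted p = 0.00104).

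For Fosb the difference was 2.22 ± 0.77 and close to the threshold (adjusted p = 0.0418). It lost the call with limma-voom (adjusted p = 0.0923) and in 9 of 12 fits that left out 1 library, where the adjusted p reached 0.141 without liver control replicate 3 and the value ran from 1.66 to 3.14. For Egr2, Egr3 and Fosl1, which entered the joint model through the cell libraries alone, neither a size nor a test of the difference was given. The co-repressors also differed, by 2.22 ± 0.27 for Nab2 (adjusted p = 2.51e-05) and 0.77 ± 0.25 for Nab1 (adjusted p = 0.0335). The tables also differ in dose, route, duration and diet or oxLDL, and these cannot be told apart from the tissue.

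**Figure D2:**
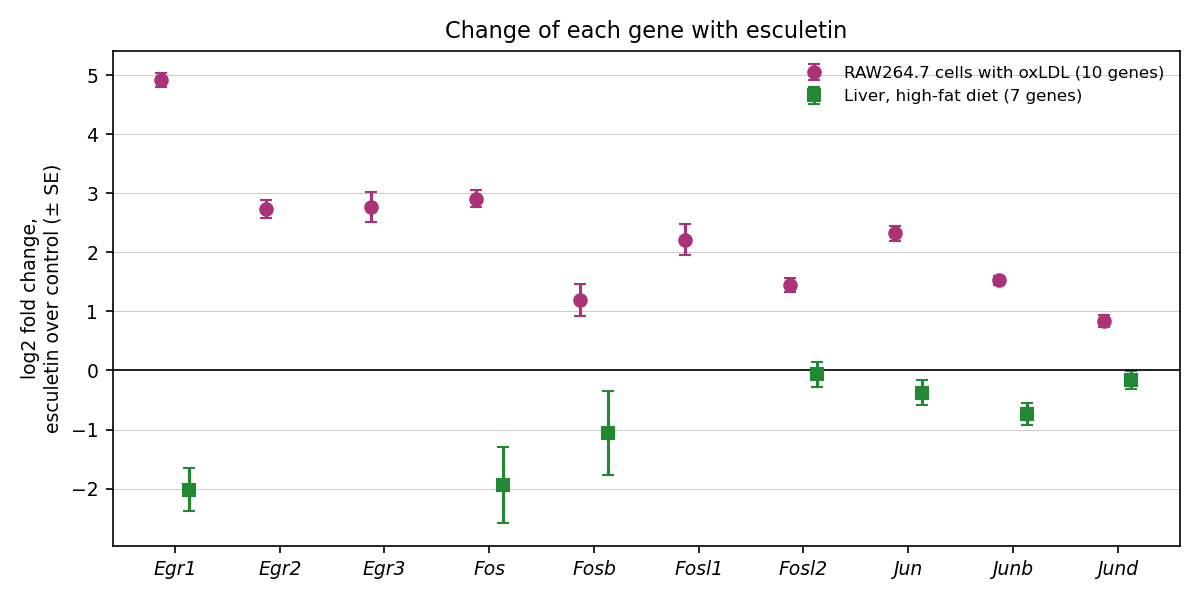
Log2 fold change of each gene with esculetin over control, with SE as error bars, for 10 genes in the cells (circles) and the 7 genes tested in the liver (squares). Egr1, whose change chose the set, lies at 4.92 in the cells and -2.02 in the liver. The 9 other cell values lie above 0, from 0.83 for Jund to 2.91 for Fos. The 6 other liver values lie below 0, from -1.94 for Fos to -0.07 for Fosl2.

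To compare genes with each other, levels were expressed per length as TPM, counts per exonic length scaled to the same total in each library. Exons of Fosl1 (1163 of 2033 bases) and Jund (877 of 1667 bases) overlap another gene, as do fewer bases of Jun and Junb. Their TPM, ranks and family shares may be off if reads there were dropped or shared. In control cells, Junb was highest at 193 ± 4 TPM. Jund (84.1 ± 7.0), Fosl2 (84.0 ± 0.8) and Jun (56.4 ± 2.6) followed, where Jund and Fosl2 overlapped. Fos was at 10.0 ± 1.5 TPM, while Fosl1 (4.43 ± 0.87), Egr1 (4.15 ± 0.28) and Egr2 (4.08 ± 0.47) could not be ranked beyond their spread. Fosb (2.71 ± 0.34) and Egr3 (1.51 ± 0.59) were lowest.

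With esculetin, Junb was still highest in the cells at 537 ± 8 TPM. Jun (273 ± 47) and Fosl2 (221 ± 39) came next, with overlapping ranges, and Jund (145 ± 11) and Egr1 (121 ± 14) also overlapped. Fos reached 72.8 ± 7.3 TPM, Egr2 26.2 ± 2.2 and Fosl1 19.8 ± 6.1, while Egr3 (10.0 ± 1.2) and Fosb (5.96 ± 2.46) were lowest.

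In the control liver the order was different. Jund was highest at 89.7 ± 9.6 TPM, and Junb (26.7 ± 3.6), Jun (21.9 ± 4.9) and Egr1 (12.1 ± 7.8) followed with overlap between neighbours. Fos (2.89 ± 0.84) and Fosl2 (2.60 ± 0.78) also overlapped, and Fosb was at 0.454 ± 0.311 TPM. With esculetin Jund stood at 76.6 ± 10.6 TPM, Jun at 15.9 ± 4.3 and Junb at 15.1 ± 4.0, and Egr1 (2.82 ± 0.33) overlapped with Fosl2 (2.34 ± 0.29).

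Set side by side without a test, since the tables were made apart, control cells had 32.3 times the Fosl2 TPM of control liver, 7.23 times the Junb TPM and 5.97 times the Fosb TPM. The ratio was 3.46 for Fos and 2.58 for Jun. Jund overlapped between control cells and control liver. Egr1 was lower in control cells than in control liver, at 0.343 times, or 0.546 times without liver control replicate 2. These control values of Egr1 are among those that chose the set, so its difference from the other members is a description only.

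The make-up of each family was expressed as the share of each gene in the family's summed TPM. In control cells, Egr1 and Egr2 held near-equal shares of the Egr family, 42.6% ± 1.4 and 42.0% ± 6.6. In treated cells Egr1 held 76.9% ± 2.7, and the Egr sum was 158 ± 13 TPM against 9.75 ± 0.47 TPM in controls. In the liver Egr1 held 96.0% ± 2.6 of the Egr sum in controls and 98.8% ± 2.0 with esculetin, while the sum was 12.5 ± 7.7 and 2.86 ± 0.34 TPM.

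Fosl2 held most of the Fos family in the cells. Its share was 83.1% ± 1.7 in controls and 68.9% ± 2.8 with esculetin, and that of Fos itself was 9.88% ± 1.21 and 23.2% ± 4.3. The Fos sum was 101 ± 2 TPM in controls and 319 ± 45 TPM with esculetin. In control liver, Fos (47.7% ± 11.4) and Fosl2 (43.9% ± 15.8) had similar shares of a sum of 6.01 ± 0.75 TPM. With esculetin the share of Fos was 0% to 39.3% across the 3 liver libraries, at a sum of 3.22 ± 0.43 TPM.

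In the Jun family, Junb held 57.9% ± 1.9 in control cells and 56.3% ± 2.0 in treated cells, with overlapping ranges. The share of Jun was 16.9% ± 0.6 in controls and 28.5% ± 3.6 with esculetin, and that of Jund was 25.2% ± 1.8 and 15.2% ± 1.8, each without overlap between the groups. The Jun sum was 334 ± 5 TPM in controls and 955 ± 46 TPM with esculetin. In the liver Jund held the largest share, 64.9% ± 3.7 in controls and 71.2% ± 6.4 with esculetin.

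**Figure D3:**
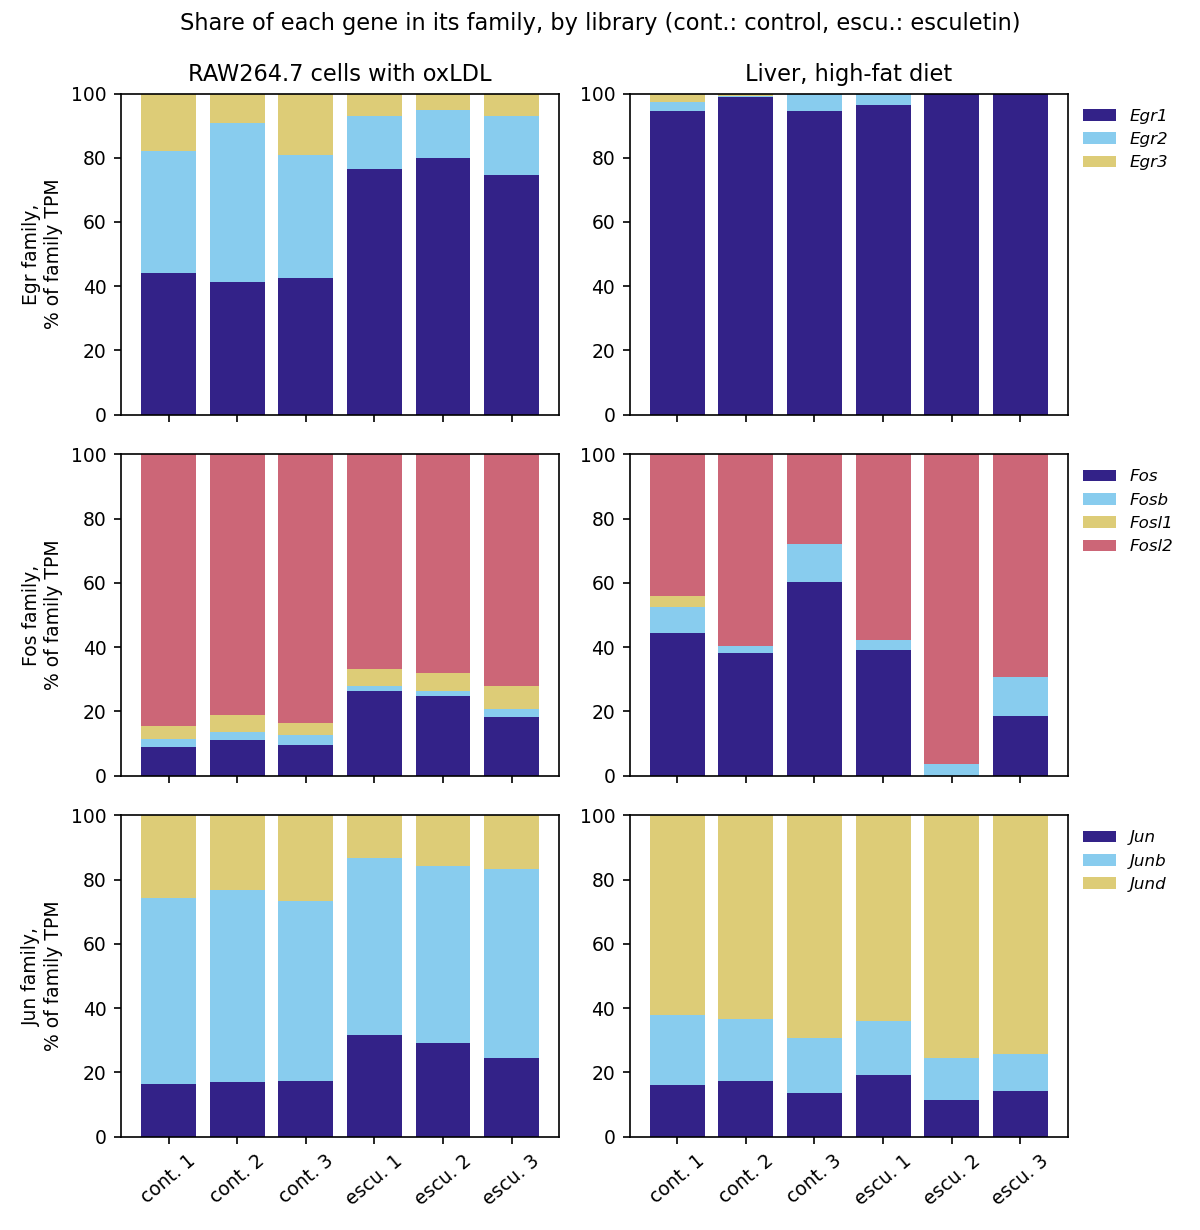
Share of each gene in the summed TPM of its family, in percent, for each of the 6 cell libraries (left) and 6 liver libraries (right), with the Egr, Fos and Jun families from top to bottom. In the cells the share of Egr1 is larger in the treated libraries (74.5% to 79.8%) than in the controls (41.3% to 44.1%), while Junb stays the largest part of the Jun family. In the liver Jund is the largest part.

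Of 13 other AP-1 and related leucine zipper genes, 9 were tested in the cells, where 4 rose, 1 fell and 4 did not pass the test. Over all genes tested 28.7% were called higher and 29.0% lower. The list had a median log2 fold change of 0.05 beside -0.01 over all genes. Atf3, a stress-induced partner of Jun proteins, rose from 61.4 ± 2.7 to 251 ± 35 CPM (log2 2.03 ± 0.11 SE, adjusted p = 1.55e-07, edgeR). Maff, a small Maf protein, rose by 0.54 ± 0.11 (adjusted p = 0.00167), Jdp2, which represses AP-1 sites, by 0.51 ± 0.16 (adjusted p = 0.0172) and Batf2 by 1.07 ± 0.39 (adjusted p = 0.0334). Mafk, another small Maf protein, fell by 0.53 ± 0.10 (adjusted p = 0.000654). In the liver 0 of 12 passed the test with edgeR and 1 had an unadjusted p under 0.05, beside 1072 of all 12813 genes tested. Mafg was at 48.8 ± 6.7 CPM in control livers and 40.8 ± 6.1 CPM with esculetin (adjusted p = 0.665).

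Of 37 other immediate early genes, 35 were tested in the cells, where 20 rose, 7 fell and 8 did not pass the test, beside 28.7% of all genes called higher and 29.0% lower. Their median log2 fold change was 0.50. Ptgs2, the inducible cyclooxygenase, rose from 18.5 ± 1.2 to 181 ± 18 CPM (log2 3.29 ± 0.11 SE, adjusted p = 7.04e-09, edgeR). Arc, best known from synapses, rose from 3.23 ± 0.77 to 42.4 ± 8.7 CPM (3.72 ± 0.20, adjusted p = 1.57e-07). Ier2 rose from 12.7 ± 1.1 to 49.97 ± 0.92 CPM (1.98 ± 0.11, adjusted p = 1.65e-07), and Plk2, a polo-like kinase, from 5.60 ± 0.19 to 35.7 ± 6.8 CPM (2.67 ± 0.16, adjusted p = 2.68e-07).

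The 7 that fell, named after their values were seen, were Zfp36l1 and Zfp36l2, which destabilize AU-rich mRNA, the stress gene Gadd45b, the clock gene Per1, the kinase Pim1, the TGF-beta-induced factor Klf10 and the nuclear receptor Nr4a2. Their log2 fold changes ran from -1.55 for Zfp36l1 to -0.43 for Zfp36l2. In the liver 0 of 33 passed the test with edgeR, and 11 had an unadjusted p under 0.05, beside 1072 of all 12813 genes tested. Of these 11, 7 were lower with esculetin, beside 4.98% of all genes in that direction. Klf2, Zfp36, Ccn2 and Per1 were higher. The 2 of the 33 with the smallest p were Plk2 and Klf10. Plk2 was at 13.9 ± 1.1 CPM in controls and 7.52 ± 0.95 with esculetin (-0.89 ± 0.17, adjusted p = 0.0839). Klf10 was at 8.32 ± 1.63 and 3.84 ± 1.45 CPM (-1.11 ± 0.28, adjusted p = 0.244).

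Of the 23 SRF, CREB and MAP kinase genes that act upstream of several members, all were tested in the cells. Of these, 9 rose, 7 fell and 7 did not pass the test. Over all genes tested 28.7% were called higher and 29.0% lower. The median log2 fold change was 0.11. Map2k1, the kinase that activates ERK, rose from 218 ± 6 to 423 ± 78 CPM (0.95 ± 0.12 SE, adjusted p = 4.41e-05, edgeR), and Rps6ka3, a kinase downstream of ERK, from 50.4 ± 7.1 to 85.0 ± 2.0 CPM (0.75 ± 0.10, adjusted p = 0.000101). The related Rps6ka1 fell from 200.4 ± 8.2 to 127.5 ± 7.1 CPM (-0.65 ± 0.08, adjusted p = 4.71e-05). In the liver 0 of 23 passed the test with edgeR, with a median of 0.02. An unadjusted p under 0.05 was found for 1, beside 1072 of all 12813 genes tested. Crem was at 14.5 ± 1.1 and 18.3 ± 1.6 CPM (adjusted p = 0.556) and Mapk8 at 10.9 ± 1.9 and 8.43 ± 0.77 CPM (adjusted p = 0.622).

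Of 23 genes known as targets of Egr or AP-1, 18 were tested in the cells. Of these Mmp9, Mmp12 and Hbegf passed the filter on low counts through the treated libraries alone and were left out of the count. Among the other 15, 13 rose and 0 fell, beside 28.7% of all genes called higher and 29.0% lower, and the median log2 fold change was 1.46. Tnf, the inflammatory cytokine, rose from 16.4 ± 0.2 to 112 ± 19 CPM (2.77 ± 0.12 SE, adjusted p = 8.03e-08, edgeR). Vegfa, the angiogenic growth factor, rose from 176 ± 5 to 573 ± 49 CPM (1.71 ± 0.09, adjusted p = 1.28e-07). Hbegf, a ligand of the EGF receptor, had 6, 7 and 0 counts in controls and 134, 278 and 367 with esculetin. Timp1, an inhibitor of matrix metalloproteinases, was lower with esculetin, at 4.78 ± 1.33 CPM in controls and 3.21 ± 0.62 CPM in treated cells. Its groups did not overlap, but it did not pass the test (-0.58 ± 0.26, adjusted p = 0.0739). The macrophage marker sum was higher in the treated libraries, and its part in the values of these targets was not tested.

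In the liver 0 of 16 tested targets passed the test with edgeR, and 3 had an unadjusted p under 0.05, each lower with esculetin, beside 4.98% of all genes in that direction. Icam1, an adhesion molecule, was at 7.83 ± 0.90 CPM in controls and 4.17 ± 0.41 with esculetin (-0.91 ± 0.20 SE, adjusted p = 0.165), and Vegfa at 47.0 ± 27.2 and 24.8 ± 3.9 CPM with overlapping groups (-0.92 ± 0.31, adjusted p = 0.458). The median over the 16 was -0.20.

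**Figure D4:**
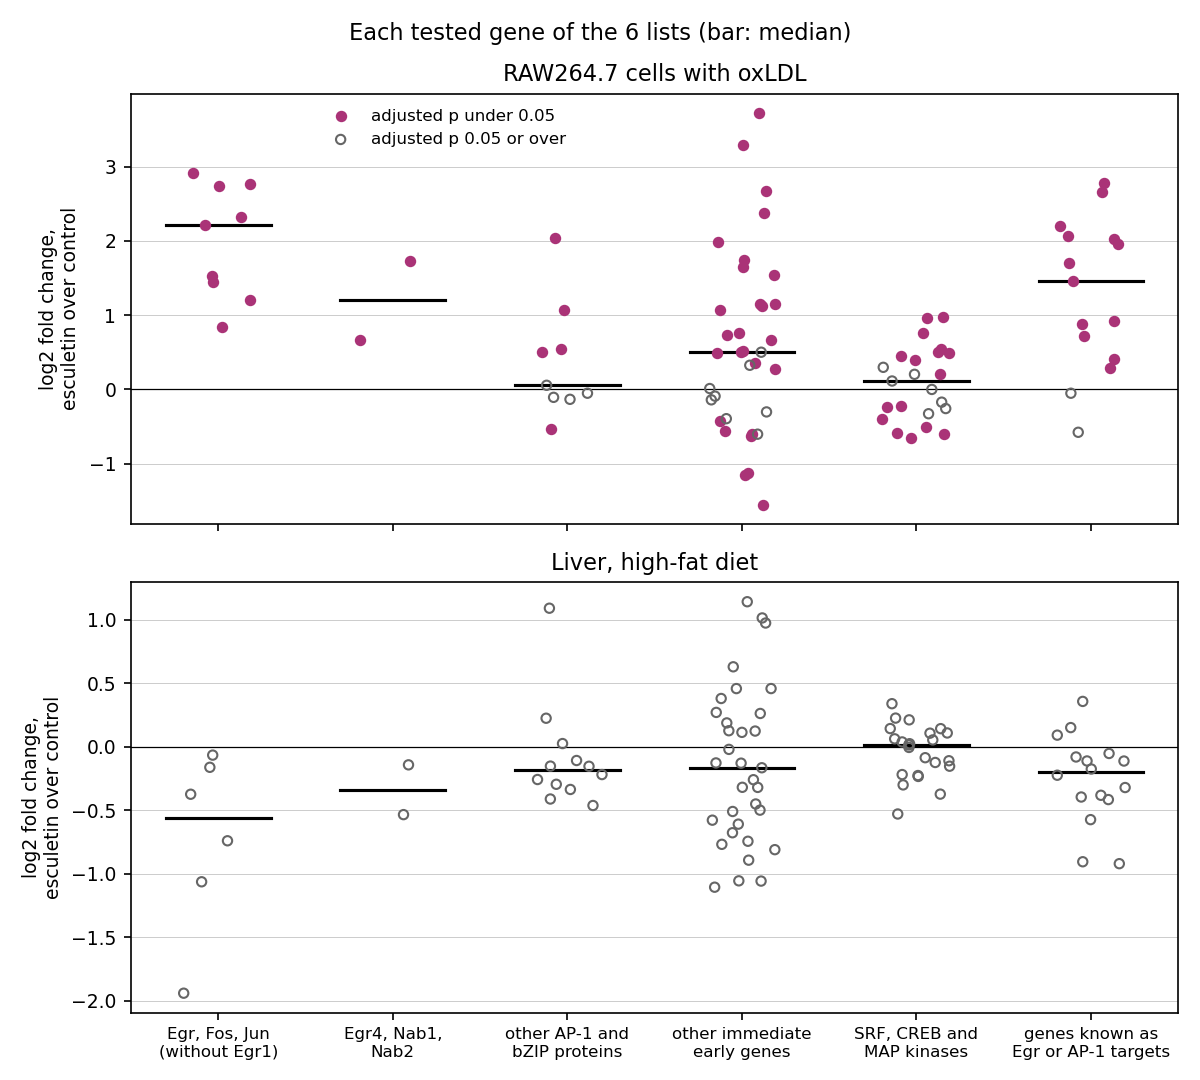
Log2 fold change with esculetin of each tested gene in the 6 lists, for the cells (upper panel) and the liver (lower panel, with a narrower vertical scale). Filled points passed an adjusted p under 0.05, open points did not, bars are medians, and Mmp9, Mmp12 and Hbegf, which passed the filter through the treated cells alone, are not drawn. In the cells the medians are 2.22 for the 9 members without Egr1 and 1.46 for the targets, and no point of the lower panel is filled.

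The genes whose pattern was most like that of Egr1 were sought by Pearson's r of log2 CPM, centred on the mean of each table, over 12 libraries and 10448 genes tested in both tables. These libraries fall into a treated and an untreated group in each table, so r mostly reflects that split. Among the 5 highest were Plk2 (r = 0.979), Myo9b (0.978), Id2 (0.977) and Slc12a4 (0.973). Each of these 4 was higher with esculetin in the cells and lower in the liver by its mean CPM, as for Id2 with 6.07 ± 0.76 and 18.5 ± 1.8 CPM in control and treated cells and 173 ± 28 and 132 ± 8 CPM in control and treated livers. Among the members, Jun ranked 24 (r = 0.958), Junb 37 (0.950), Jund 294 (0.904), Fosl2 346 (0.899), Fos 1133 (0.810) and Fosb 3251 (0.470).

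Over the 6 liver libraries alone and 11853 genes with a mean of at least 1 CPM, the closest genes were Anpep (r = 0.998), Itih1 (0.996), Adgre5 (0.984), Klf16 (0.981) and Lmtk2 (0.978). These 5 shared with Egr1 the high value of control replicate 2. Anpep, an aminopeptidase, was at 119, 140 and 116 CPM in control livers and at 97.9, 94.1 and 101 CPM with esculetin. Among the members Junb came first at rank 431 (r = 0.804), followed by Jun at 650 (0.756).

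Some of the members overlap other genes, and since the counting was not stated to use strand, their reads cannot be told apart where the exons overlap. Fosl1 (GRCm39, chr19:5497575-5505974) shared 1163 of 2033 exonic bases with Ccdc85b on the other strand, which was at 18.5 ± 1.4 CPM in control and 21.3 ± 3.0 CPM in treated cells. Jun (chr4:94937271-94940459) shared 528 of 3189 exonic bases with the antisense RNA Junos, which rose in the cells from 0.746 ± 0.232 to 3.97 ± 1.13 CPM (log2 fold change 2.39, adjusted p = 0.000122, edgeR). Junb (chr8:85701113-85705359) shared 173 of 2381 exonic bases with Prdx2, which moved the other way in the cells, from 243 ± 19 to 152 ± 11 CPM (-0.68, adjusted p = 6.88e-05). Jund (chr8:71151599-71153265) shared 877 of 1667 exonic bases with Gm11175, which had no count in any library. Fos (chr12:85520658-85524047) overlapped no annotated gene, and Egr2 (chr10:67371305-67378018) overlapped a long non-coding RNA that is not analysed here.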

How the data were processed

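RNA from 6 pooled mouse livers and 6 RAW264.7 samples was analysed. Per the labels, Trizol RNA and a NEBNext Ultra kit were used. The authors deposited raw counts per gene, with the liver and the cells in separate tables. Per the study and the submitters' processing notes, reads were aligned to GRCm39 with HISAT2 2.2.1 (the notes also name mm10) and counted with featureCounts. Strandedness, multi-mapping reads and the annotation release were not given in the sources used here, and reads in overlapping exons may have been dropped or shared.

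Symbols, coordinates and exonic lengths came from GENCODE vM39 on GRCm39 (54749 of 55357 identifiers matched), and promoter windows from RefSeq on GRCm38.p6, with no coordinate converted. R 4.3.3 and edgeR 4.0.16 were used on each table separately (filterByExpr, TMM, glmQLFit, glmQLFTest), with treatment as the only term, and the difference of effects was tested over 4 group means of all 12 libraries. P-values were two-sided with Benjamini-Hochberg adjustment over all genes tested, and the threshold was an adjusted p of 0.05. SE was the log2 fold change divided by the square root of F. No fold change was given where every library of a group had 3 counts or fewer. Likeness used log2 CPM with a prior count of 2. The fits were tested on simulated data.

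Alternatives were RLE factors, library size only, other filters, DESeq2 1.42.0, limma-voom 3.58.1, the study's rule (limma p under 0.05 and fold over 1.5), a replicate block and leaving out each library. The members and lists were chosen with earlier results of these data known. Named are all 10 members, Egr4, Nab1 and Nab2, from each list the 4 genes with the smallest p in the cells and the 2 in the liver (and every called gene where 5 or fewer were called), and the 5 genes most like Egr1 in each search. A few genes that this rule names are not reported here. Figures were drawn with matplotlib 3.10.9 in Python 3.11.15.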

Additional observations from a re-analysis of the deposited data

Results flagged for a closer look

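The treatment effect differed between cells and liver for 6 members whose size could be measured in both, by the test of the difference itself in the joint edgeR model. The log2 fold change in the cells exceeded that in the liver by 4.79 for Fos, 2.66 for Jun, 2.22 for Junb, 2.22 for Fosb, 1.47 for Fosl2 and 0.95 for Jund. Fosb was the 1 call among these 6 that was lost under any alternative.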

How the results depend on the processing

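The count of 9 members called in the cells was 9 under every alternative run, and 0 members other than Egr1 were called in the liver under all but 3. Those were no filter on low counts (2, Fos and Junb), the study's rule (2) and the replicate block (1, Junb at an adjusted p of 0.0339). Before the fold part of the study's rule, 1057 of 12813 liver genes had a limma p under 0.05. The replicate numbers were not taken to pair the samples, since not every library correlated best with its own number. The deviations of same-numbered libraries correlated at -0.01 to 0.14 in the liver and -0.03 to 0.16 in the cells. In both tables control replicates 1 and 3 correlated best with their own number, and control replicate 2 did not. A pairing thus remains possible. With the replicate block 9 members were called in the cells. Leaving out 1 library gave 9 in the cells and 0 in the liver. In the difference, Fosb alone of the 6 members measured in both tables lost its call under any alternative. Egr2, Egr3 and Fosl1 are not counted there, since they entered through the cell libraries alone. Leaving out 1 library moved Fosl2 in the liver between -0.27 and 0.10, the latter without control replicate 2, and Egr1 from -2.02 to between -2.30 and -1.34, again the latter without control replicate 2. Over all genes, liver calls were 11, but 98 with DESeq2, 339 without a filter, 123 with the replicate block, 0 with library size only and 0 to 31 when 1 library was left out. The causes were not tested. In the liver Fos, Fosb, Egr2, Egr3 and Fosl1 rested on 0 to 47 counts a library. The ratio of Egr1 without a library and the list counts without genes that passed through 1 group were chosen after seeing the data.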
